A study of Mus musculus with 2 samples.

Results

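Cytosolic ribosomal protein genes are described here: the 83 genes, of 16803 genes listed, whose symbols name a protein of the large (Rpl, Rplp) or the small (Rps, Rpsa) subunit of the cytosolic ribosome. They were chosen by symbol alone, and symbols that carry the pseudogene ending -ps were not taken. Some proteins of the same ribosome under other names, such as Fau, Rack1 and Rpl36al, fell outside that choice and are given separately. RNA was sequenced from the mouse neural stem cell line NE4C in 2 libraries: 1 from cells in normal culture (control) and 1 from cells treated with homocysteine thiolactone (HTL treatment), a reactive cyclic form of homocysteine that can bind to the lysines of proteins. Both cultures grew in Eagle MEM on plates coated with poly-L-lysine, and no dose or duration of the treatment is in the labels. The study addressed how a high level of homocysteine, which is linked to neural tube defects, alters histones and gene expression, and the comparison of these libraries asked which genes differed after HTL. With 1 library per condition, no difference below has a replicate check. All tests and 95% intervals compare these 2 libraries, not the conditions, and cover counting error only.

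The ribosome joins amino acids into protein. Its small subunit reads the messenger RNA, and its large subunit holds the site where the peptide bond forms and the tunnel through which the new chain leaves. Each subunit is built in the nucleolus from ribosomal RNA and a fixed set of proteins, nearly all present in a single copy per ribosome, so that a cell needs their messenger RNAs in like amounts. Most of these messenger RNAs begin with a short run of pyrimidines, the terminal oligopyrimidine (TOP) tract, through which mTOR signalling and the protein Larp1 control their translation and stability. Reduced dose of a ribosomal protein gene causes Diamond-Blackfan anaemia in people and, for some genes, skeletal or pigment phenotypes in mice.

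The TOP tract is a feature of the first transcribed bases. To show it, 30 bases of RefSeq sequence around the annotated start (GRCm38.p6) are printed, 15 of them before the start, for members that sit at different places in the results below: Rpl35, among the most abundant, Rplp2 of the ribosomal stalk and Rpl22l1, a paralog, all with higher levels after HTL, Rpl38, whose loss alters the axial skeleton of mice, Rps27 and Rpl14, with small differences, and Rpl7l1, which was lower. Capitals mark the longest run of at least 8 C or T within the 30 bases, and the start listed first is shown where RefSeq has several.
Rpl35 (chr2:39005117-39005146, minus strand): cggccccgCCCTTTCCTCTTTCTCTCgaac
Rplp2 (chr7:141447636-141447665, plus strand): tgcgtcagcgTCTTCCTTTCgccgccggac
Rpl38 (chr11:114668565-114668594, plus strand): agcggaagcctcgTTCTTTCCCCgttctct
Rps27 (chr3:90213634-90213663, minus strand): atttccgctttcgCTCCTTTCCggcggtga
Rpl14 (chr9:120571502-120571531, plus strand): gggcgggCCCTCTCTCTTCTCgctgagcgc
Rpl22l1 (chr3:28805493-28805522, plus strand): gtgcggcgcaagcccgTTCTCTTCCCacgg
Rpl7l1 (chr17:46782642-46782671, minus strand): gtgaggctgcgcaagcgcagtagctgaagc

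The longest of these runs, 18 bases in Rpl35, stands beside a window without any in Rpl7l1. RefSeq windows of 300 bases (250 before to 50 after each start) were found for 63 members, 75 windows in all. A run of at least 8 pyrimidines on the gene's strand, between 10 bases before and 20 bases after the start, was present in 25 of the 75 windows (33.3%), compared with 11.2% of all 32851 windows. A run of purines of the same length, the mirror of that search, was present in 4.0% of the member windows and 13.3% of all. Other motifs were sought on both strands of the whole windows, and several were also more frequent in those of members: CCGGAA, the core of ETS factor sites, in 46.7% against 14.9%, TCTCGCGA in 16.0% against 0.995% and AAGATGGC, which resembles the YY1 motif, in 10.7% against 2.75%. The longer ETS-type string CGGAAGT, which overlaps CCGGAA, was present in 29.3% against 6.42%. TATAAA was found in 10.7% of the member windows and 13.6% of all, the E-box CACGTG in 10.7% and 7.15%, and TGATGCAA, a string bound by ATF4, in 0 of 75 and 0.895%. These are matches of letters in annotated windows, and the annotated starts of a gene can differ by several bases.

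The estimated reads summed to 10350665 in the control and 9102076 in the HTL treatment library. Of 9 neural stem cell markers, 8 had more than 3 reads in each library, and Fabp7 had 2 reads in each. Their summed level was 513 CPM in control (reads scaled to the library total) and 366 CPM after HTL, and its members differed in direction, with Sox2 at 34.7 and 12.6 FPKM, Msi1 at 38.7 and 39.5 FPKM and Notch1 at 1.24 and 2.63 FPKM. The summed level of 5 neuron markers was 52.1 and 58.2 CPM, and 5 of them in control and 4 after HTL had more than 3 reads. They too differed in direction, with Tubb3 at 296 and 396 reads and Dcx at 88 and 29. Of 5 astrocyte and oligodendrocyte markers 3 were listed and only Mbp had more than 3 reads, of 4 blood and microglia markers 2 were listed and only Cd68 had more than 3, and 5 of 5 fibroblast and mesoderm markers had more than 3 (26.4 and 18.7 CPM, with T at 188 and 80 reads and Col1a1 at 12 and 25). The part of these differences in the results below was not tested.

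As a set, the ribosomal protein genes were higher after HTL. They took 848179 reads, or 8.19% of the control library (8.18 to 8.21%, exact Clopper-Pearson), and 1025229 reads, or 11.3% of the HTL treatment library (11.2 to 11.3%). The ratio of these shares was 1.37, a log2 ratio of 0.46 (0.45 to 0.46). In bulk RNA, a different number of cells of a type and a different amount of RNA per cell cannot be told apart. The large subunit genes took 5.49 and 7.37% of reads, and the small subunit genes 2.71 and 3.90%.

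A gene was tested when its reads in the 2 libraries summed to at least 10, which held for 80 of the 83. The test was a two-sided exact binomial test of the reads against the library totals. At a Benjamini-Hochberg adjusted p of at most 0.001, 76 of the 80 were higher after HTL, while 14.5% of the 13442 genes tested were higher. Lower levels were found for 2 of the 80, Rpl21 and Rpl7l1, while 24.1% of all genes were lower. These shares of all genes depended on the scaling: with TMM 20.1% were higher and 18.5% lower (2706 and 2485 genes), and 77 members were higher and 1 lower. Highly expressed genes pass such a test more often: among 1962 genes outside the set whose mean was 1000 reads or more, 30.4% were higher and 39.8% lower. The 2 members that passed in neither direction were the paralogs Rps27l (adjusted p = 0.00435, exact binomial test) and Rpl32l (0.00476). The median log2 ratio of the 80 was 0.47, with a range from -0.54 to 1.10, beside a median of -0.14 for all genes tested. In all, 79 of the 80 lay above that median gene.

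Only Rps29 met the study's cutoffs of an adjusted p of at most 0.001 and a log2 ratio of at least 1, which 2.81% of all genes met as higher and 7.98% as lower. The counts rest on an error that covers reads alone. With a biological coefficient of variation of 0.1 assumed in edgeR's exact test, 4 of the 80 were higher at the same adjusted p and 0 lower, with 381 of all genes higher and 976 lower. With 0.2 assumed, 0 members passed, with 38 of all genes higher and 82 lower.

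**Figure D1:**
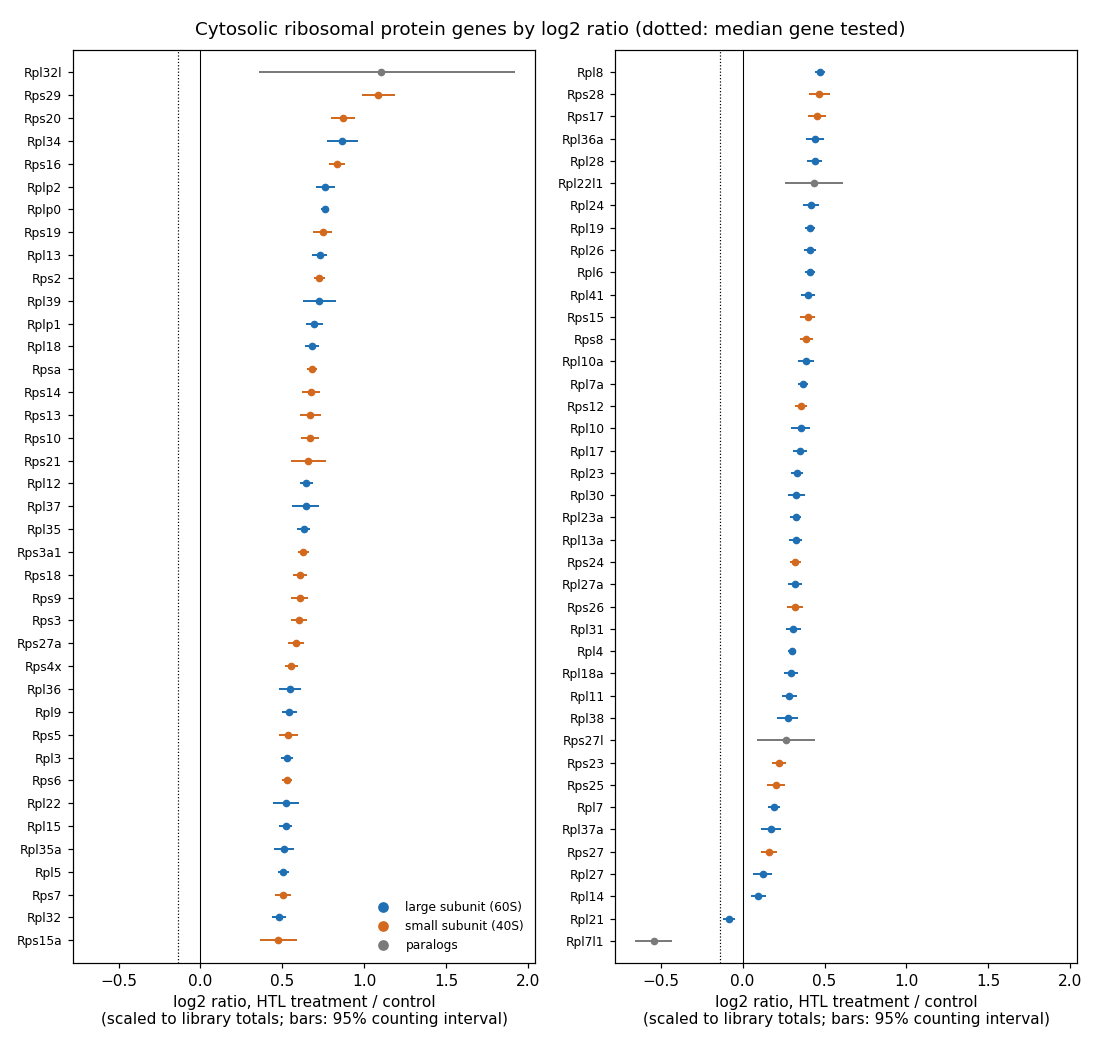
Log2 ratio of reads (HTL treatment over control, scaled to library totals, x axis) for 79 of the 80 genes tested, ordered from the highest at the top left to the lowest at the bottom right, with 95% counting intervals as bars and the median gene tested as a dotted line. All points but that of Rpl7l1 lie right of the dotted line at -0.14, and Rpl21 and Rpl7l1 lie left of 0.

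Across the core set, the 76 genes tested that are not paralogs of another ribosomal protein gene, the ratios were close together but not equal. Their standard deviation was 0.21 on the log2 scale, with 61 of 76 between 0.25 and 0.75. The median half-width of a gene's counting interval was 0.041, and for 66 of the 76 genes that interval did not include the set's median of 0.47, with 33 genes above and 33 below it. The 31 small subunit genes had a median log2 ratio of 0.56 (range 0.16 to 1.09), and the 45 large subunit genes 0.41 (-0.084 to 0.87). All 31 small subunit genes and 44 of 45 large subunit genes were higher at the adjusted p.

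On the FPKM scale, which corrects for transcript length and so allows levels of different genes to be compared, the core set was among the most abundant messages of both libraries. Its median was 1208 FPKM in control and 1787 FPKM after HTL, while the median of all genes listed was 4 and 3.36 FPKM. More than 1000 FPKM was reached by 49 of the 76 in control and by 62 after HTL. Of the 20 genes with the highest FPKM, 11 were members in control and 16 after HTL. For the 100 highest the numbers were 64 and 66. The FPKM ratio of HTL treatment to control ranged from 0.941 to 2.12 with a median of 1.39, and was above 1 in 75 of 76.

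The 5 highest in control were all of the large subunit: Rpl23a, Rpl35, Rpl4, Rpl7a and Rpl19. Rpl23a, which lies at the exit of the peptide tunnel where the signal recognition particle docks, had 4237 FPKM in control and 5292 after HTL. Rpl35, its neighbour there, had 2989.7 and 4621 FPKM. Rpl4, which reaches into the tunnel wall, had 2950 and 3631 FPKM, Rpl7a 2931 and 3774 FPKM, and Rpl19 2927 and 3889 FPKM. These last 4 were within 2927 and 2989.7 FPKM in control, and Rpl35 stood above the others of them after HTL. The order of levels was nearly kept: Spearman's rho between the FPKM of the libraries was 0.97 over the 76 genes, which share the same pair of libraries and the same length values. The lowest levels were those of Rps15a (23.9 and 33.2 FPKM) and Rps20 (84.0 and 153 FPKM). The transcript lengths listed for them, 5158 and 3446 bases, are the longest of the core set, and a long listed transcript lowers the FPKM.

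**Figure D2:**
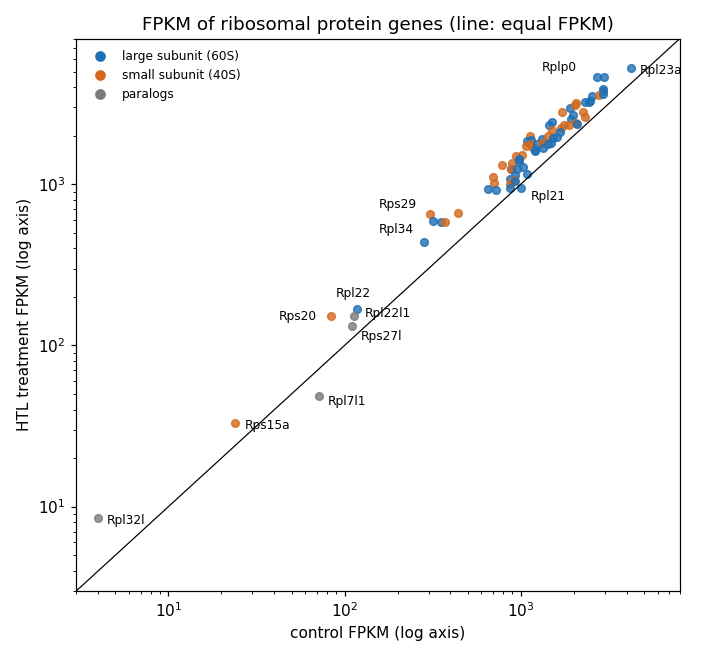
FPKM in HTL treatment (y axis, log scale) against FPKM in control (x axis, log scale) for the 80 genes tested, coloured by subunit, with a line of equal FPKM. Almost all core genes lie just above the line, between 23.9 and 4237 FPKM in control, while Rpl21 and Rpl7l1 lie below it.

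In the large subunit, the stalk proteins had some of the larger ratios. The stalk recruits the elongation factors to the ribosome and consists of Rplp0, its scaffold, and pairs of Rplp1 and Rplp2, with Rpl12 at the base. Rplp0 (gene ID 11837; chromosome 5, 116009476 to 116013736, plus strand, build NCBIM37) had the most reads after HTL of all members, 37996 in control and 56618 after HTL, a log2 ratio of 0.76 (0.74 to 0.78). Rplp1 had 6885 and 9811 reads (0.70, 0.65 to 0.74), Rplp2 4661 and 6955 (0.76, 0.71 to 0.82) and Rpl12 12238 and 16829 (0.65, 0.61 to 0.68). Their median log2 ratio was 0.73, and all 4 were higher at the adjusted p, as were 44 of the 45 large subunit genes.

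Rpl5 and Rpl11 enter the large subunit together with its smallest ribosomal RNA, and the same particle, when not built into ribosomes, binds the p53 regulator Mdm2. Rpl5 had 18611 reads in control and 23241 after HTL, a log2 ratio of 0.51 (0.48 to 0.53). For Rpl11 the reads were 9439 and 10115, with a log2 ratio of 0.29 (0.24 to 0.33). Both were higher, and their intervals did not overlap, with Rpl5 above and Rpl11 below the median of the core set.

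The 8 proteins that line or surround the exit of the peptide tunnel had a median log2 ratio of 0.38, and all 8 were higher, as were 75 of the 76 core genes. Their ratios ran from 0.30 for Rpl4, with 43051 and 46688 reads, to 0.73 for Rpl39, a very small protein inside the tunnel, with 1480 and 2153 reads. Rpl35 (0.63) was the only other of the 8 above the core median, and Rpl17, Rpl19, Rpl23a, Rpl26 and Rpl31 lay between 0.31 and 0.41. Counted by its own row, Rpl34 had the highest ratio of the large subunit core genes, with 1624 reads in control and 2604 after HTL (log2 ratio 0.87, 0.78 to 0.96). Summed with its copy Rpl34-ps1, it had 0.70, below Rplp0 and Rplp2. Rpl13 (0.73), Rpl18 (0.68) and Rpl37 (0.64) also had ratios above 0.60. Among the other large subunit genes, Rpl3, which lies by the peptidyl transferase centre, had 17290 and 21937 reads (0.53, 0.50 to 0.56), and Rpl10, which joins the subunit at its last step of maturation, had 5781 and 6498 reads (0.35, 0.30 to 0.41).

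In the small subunit, the genes of the head domain, which holds transfer RNA and moves during translocation, had a median log2 ratio of 0.59, and 14 of 14 were higher, as were all 31 small subunit genes. Rps29 (gene ID 20090, chromosome 12, 70258709 to 70260173, minus strand), a small zinc-binding protein of the head, had 1336 reads in control and 2496 after HTL. On the FPKM scale it had 307.5 and 652. Its log2 ratio of 1.09 (0.99 to 1.18, adjusted p = 1.62e-113, exact binomial test) was the highest of the core set, and its interval did not overlap that of the gene next in order. Next came Rps20, with 3016 and 4845 reads (0.87, 0.80 to 0.94), Rps16, whose tail reaches the decoding site, with 7065 and 11076 reads (0.83, 0.79 to 0.88), and Rps19, the gene most often mutated in Diamond-Blackfan anaemia, with 4899 and 7233 reads (0.75, 0.70 to 0.80). The intervals of Rps20 and Rps16 overlapped, as did that of the large subunit gene Rpl34. The lowest of the head genes was Rps25, with 6457 and 6538 reads (0.20, 0.15 to 0.25).

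Outside the head, Rps2, at the entry of the messenger RNA channel, had 17453 and 25390 reads (0.73), and Rpsa, also known as the laminin receptor, had 20714 and 29195 reads (0.68). Rps14, of the platform beside the decoding site, had 5644 and 7931 reads (0.68). Rps6, the substrate of the S6 kinases that act below mTOR, had 21476 reads in control and 27221 after HTL, a log2 ratio of 0.53 (0.50 to 0.55), which was close to the median of the small subunit. Lower ratios outside the head were those of Rps24 (0.32), Rps26 (0.32), Rps23 (0.22) and Rps27 (0.16).

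At the low end of the core set, Rpl21 (gene ID 19933, chromosome 5, 147644466 to 147648608, plus strand) had 19476 reads in control and 16154 after HTL. On the FPKM scale it had 1008 and 949. Its log2 ratio of -0.084 (-0.11 to -0.054, adjusted p = 1.64e-07, exact binomial test) was the only value of the core set below 0, and its direction depended on the scaling: it was 0.046 with TMM, 0.0090 with the upper quartile and 0.043 with the median of ratios. Relative to the median gene, at -0.14, Rpl21 was higher. Next in order, each counted by its own row, were Rpl14, with 10354 and 9731 reads (0.096, 0.056 to 0.14, or 0.30 with its copy Rpl14-ps1), Rpl27, with 6438 and 6158 reads (0.12, 0.071 to 0.17), and Rps27, a zinc-binding protein of the small subunit, with 8219 and 8080 reads (0.16, 0.12 to 0.21). The interval of Rpl21 did not overlap those of the others, while the intervals of Rpl14, Rpl27 and Rps27 overlapped each other.

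Ribosomal protein genes have many processed copies in the genome, and RSEM can divide reads between similar genes. The estimated counts of 27 of the 80 members tested were not exactly whole numbers in at least 1 library, and values for such genes are uncertain. The 53 with exactly whole counts in both libraries had a median log2 ratio of 0.51, and 52 of the 53 were higher. Rpl29 was listed at 6 reads in control and 0 after HTL, under the filter, while a row without a symbol but with the same orthology entry had 12918 and 13002 reads (1621 and 1852 FPKM), the level of a ribosomal protein gene. With its 4 near copies added, Rpl29 had 13308 reads in control and 13442 after HTL (log2 ratio 0.20, 0.17 to 0.23). Adding near copies moved Rpl14 from 0.096 to 0.30, Rps23 from 0.22 to 0.32, Rpl34 from 0.87 to 0.70 and Rpl37 from 0.64 to 0.49. Exons of 14 members overlap those of an antisense gene, and exons of 16 overlap another gene of the same strand, and the use of strand in the counting is not given in the sources used here, so reads of such pairs may be mixed.

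Paralogs of ribosomal protein genes can replace or accompany the main gene in some tissues. Rpl7l1 (gene ID 66229, chromosome 17, 46910856 to 46919605, minus strand), a paralog of Rpl7, had 1929 reads in control and 1163 after HTL, or 71.3 and 48.8 FPKM. Its log2 ratio was -0.54 (-0.65 to -0.44, adjusted p = 1.02e-23, exact binomial test), the lowest of the 80 members tested, while that of Rpl7 was 0.19 (0.16 to 0.22). Of the summed FPKM of both, Rpl7l1 made up 3.29% in control and 2.0% after HTL. Rpl22l1, a paralog that the RNA-binding protein Rpl22 represses in other cells, had 524 and 624 reads (0.44, 0.27 to 0.61), and Rpl22 had 2639 and 3335 (0.52, 0.45 to 0.60). These intervals overlapped, and Rpl22l1 made up 49.0 and 47.5% of the pair's FPKM. It was thus nearly as abundant as Rpl22 in both libraries. Rps27l, a known target of p53, had 558 and 590 reads (0.27, 0.096 to 0.44) and made up 4.49 and 4.82% of its pair with Rps27. Rpl32l had 23 and 44 reads, with a ratio of 1.10 and a wide interval (0.36 to 1.92). Rpl3l, known from muscle, had 0 and 1 reads, and Rpl10l, known from testis, had 0 and 2 reads, both within the 3 reads that a count of 0 allows. Rpl39l and Rps4l were not analysed here.

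Of groups defined by phenotype, all 22 genes linked to Diamond-Blackfan anaemia were higher, with a median log2 ratio of 0.49 and a range from 0.12 for Rpl27 to 1.09 for Rps29. The 5 genes with patterning or pigment phenotypes in mouse mutants were higher as well, with a median of 0.51. Among them Rpl38 had 4443 and 4728 reads (0.28, 0.22 to 0.33), Rpl24 8230 and 9664 (0.42, 0.37 to 0.46) and Rps7 8538 and 10656 (0.51, 0.46 to 0.55), beside Rps19 and Rps20 above. The intervals of Rpl38, Rpl24 and Rps7 did not overlap, so these genes differed from each other beyond counting error. The phenotype groups, like the structural groups above, are drawn from the same members and, with 75 of 76 core genes higher, their counts say little beyond that of the set.

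Ribosomal protein messages are short, and across the other genes longer transcripts had lower log2 ratios (Spearman's rho -0.17 over 13362 genes of the same libraries, as a description). Of the core set, 62 of 76 lay in the shortest of 10 equal length classes of the genes tested (67 to 1180 bases), with a median log2 ratio of 0.45, while the 1279 other genes of that class had 0.10. The 138 of these others with 1000 reads or more on average had 0.20. Within wider limits (at most 1500 bases and the same minimum of reads), 68 of 68 core genes were higher, with a median of 0.45, and of 235 other genes 120 were higher and 39 lower, with a median of 0.17. Within the core set itself, rho with length was -0.064 and with control FPKM -0.27 (76 genes, the same libraries).

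**Figure D3:**
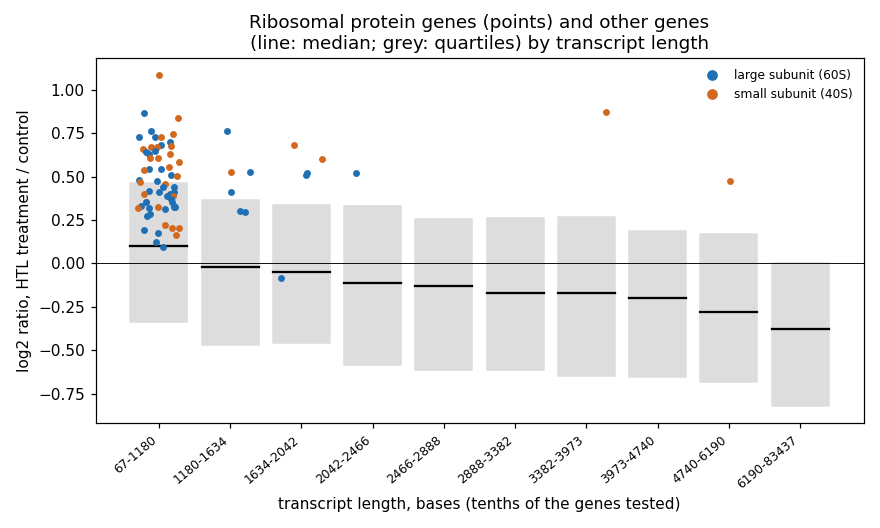
Log2 ratio (y axis) by 10 equal classes of transcript length in bases (x axis) for the core ribosomal protein genes (points, coloured by subunit), with the median (line) and quartiles (grey boxes) of the other genes tested. The medians of the other genes run from 0.10 in the shortest class to -0.38 in the longest, and 62 of the 76 points lie in the shortest class with a median of 0.45.

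Of the ribosomal components with other names, Rack1 and Fau were higher and Rpl36al was lower under library totals. Rack1, a signalling scaffold on the head of the small subunit, had 12199 and 17407 reads (0.70, 0.66 to 0.73). Fau, a ubiquitin-like fusion to a small subunit protein, had 10114 and 12153 (0.45, 0.41 to 0.49). Rpl36al was lower, with 1903 and 1352 reads (-0.31, -0.41 to -0.21), and its share of the FPKM summed with Rpl36a (5881 and 7017 reads, 0.44) was 23.4% in control and 15.4% after HTL. The lower call of Rpl36al was lost with TMM (-0.18, adjusted p = 0.00138, exact binomial test) and with the median of ratios (-0.18, 0.00115).

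The counts of the other gene lists of translation are read against the shares of all genes tested, of which 14.5% were higher and 24.1% lower at the adjusted p with library totals, and 20.1% and 18.5% with TMM. Of 77 mitochondrial ribosomal protein genes, which serve translation inside mitochondria, 10 were higher and 15 lower, near those shares, with a median log2 ratio of 0.018. With TMM the counts turned to 16 higher and 7 lower. They ran from -1.18 for Mrpl41 (435 and 169 reads) to 0.72 for Mrpl33 (216 and 314 reads). Their median level in control was 42.2 FPKM, far below that of the cytosolic genes, and genes with fewer reads pass the test less often at a given ratio. Of 64 genes tested with symbols of initiation and elongation factors, 18 were higher and 22 lower, with a median of -0.045. With TMM 24 were higher and 12 lower, with a median of 0.085. The symbols also take in regulators of the factors, such as the kinases Eif2ak1 and Eef2k and the repressor Eif4ebp1. Eif1, which guards the choice of the start codon, had 4593 and 13249 reads (1.71, 1.67 to 1.76), and Eif5, its partner in the same step, had 3325 and 1299 (-1.17, -1.26 to -1.08).

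Other messages with a TOP tract were divided. Of 15 such genes, 7 were higher and 7 lower, with a median of -0.093, and with TMM 7 and 5, with a median of 0.037. Tpt1, the translationally controlled tumour protein, had 4945 and 6831 reads (0.65) and Eef1a1, the main elongation factor, had 145430 and 145685 (0.19). Lower levels were found for the nucleolar chaperone Npm1, with 59276 and 33849 reads (-0.62), the poly(A)-binding protein gene Pabpc1, with 40063 and 27789 (-0.34), and Vim, which encodes vimentin, with 1487 and 648 (-1.01). Among 15 genes that control these messages, 5 were higher and 7 lower, with a median of -0.14, and with TMM 5 and 3, with a median of -0.015. Sesn2, a stress-induced inhibitor of mTOR complex signalling, had 447 and 2063 reads (2.39, 2.24 to 2.54), and Eif4ebp1, a repressor of cap-dependent translation, had 2710 and 4274 (0.84). Larp1 had 8472 and 6738 reads (-0.14), Mtor 1609 and 1199 (-0.24), Rps6kb1, an S6 kinase, 970 and 562 (-0.60) and Tsc1 747 and 284 (-1.21, -1.41 to -1.01).

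Of 30 genes listed as factors that assemble ribosomes, 2 were higher and 16 lower, or 6.67% and 53.3%, beside 14.5% and 24.1% of all genes tested. With TMM 4 were higher and 13 lower, or 13.3% and 43.3%, beside 20.1% and 18.5%. Their median log2 ratio was -0.27 with library totals, beside -0.14 for all genes. Genes with many reads pass the test more often, and several of the 30 had many, such as Ncl, Mdn1 and Nop56. Among the 1962 genes outside the members with a mean of 1000 reads or more, 30.4% were higher and 39.8% lower with library totals. The 16 lower include Aarsd1 (848 and 530 reads, -0.49), an alanyl-tRNA editing protein and not a known assembly factor. The higher genes were Nob1, the nuclease of the last cut of small subunit RNA, with 756 and 996 reads (0.58), and Eif6, which keeps new large subunits from joining too early, with 1661 and 1934 (0.40). The lowest were Mdn1, a large ATPase that remodels large subunit precursors, with 6901 and 2892 reads (-1.07), Rpf2, which loads the particle of Rpl5 and Rpl11, with 857 and 402 (-0.91), and nucleolin, Ncl, with 38351 and 18339 (-0.88). Nop56, of the particles that methylate ribosomal RNA, had 6227 and 3454 reads (-0.66), while Fbl, the methylase of these particles, had 3591 and 3141 (-0.01, not past the threshold). The median length listed was 2774 bases for the assembly genes and 719 bases for the core set.

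**Figure D4:**
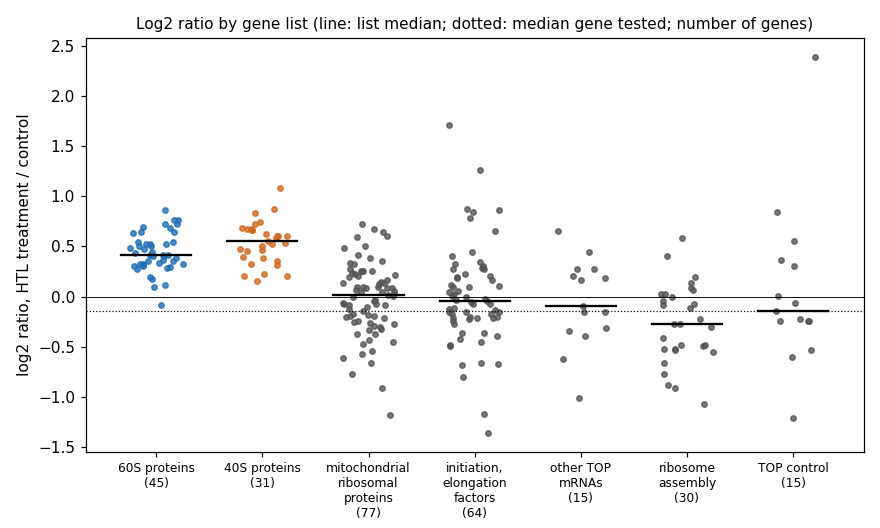
Log2 ratio of each gene tested (points, y axis) by gene list (x axis, number of genes in parentheses), with the list median as a line and the median gene tested as a dotted line at -0.14. The points of the large (median 0.41) and small subunit (0.56) lie close together above 0 but for Rpl21, while the other lists spread to both sides of 0, with the lowest median in the assembly genes (-0.27).

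Core genes with and without a pyrimidine run found at the annotated start had similar median ratios. The 23 core genes with such a run had a median log2 ratio of 0.48 (0.096 to 0.87), and the 34 with windows but no run had 0.49 (0.12 to 0.83). A gene without a found run can still carry a TOP tract if its run is shorter or its annotated start is off. Since most of these messages begin with such a tract, the comparison cannot separate messages with it from those without it. Of the sequences above, Rpl35 (run of 18) had a log2 ratio of 0.63, Rpl14 (run of 14) 0.096 and Rps27 (run of 9) 0.16. Runs of 10 went with 0.76 in Rplp2, 0.44 in Rpl22l1 and 0.28 in Rpl38. These genes were picked for their different places in the results, so they cannot show whether run length and ratio are related. Rpl7l1, without a run, had the only ratio of those shown that was below 0.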

How the data were processed

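RNA of 1 control and 1 HTL treatment culture was compared, with groups from the sample titles. Libraries were made from total RNA with a TruSeq kit and sequenced on a BGISEQ instrument. According to its methods, the study aligned cleaned reads to the mouse genome and genes (build mm9 in the submitters' processing notes) and used RSEM for gene-level estimates. The mapper, the versions and the use of strand are not given in the sources used here. The authors deposited estimated counts, not normalized, FPKM (scaled to length and library size, lowest value 0.01) and the transcript length. The deposited table also holds the authors' log2 ratio, p-value and FDR, which were not used.

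Estimated counts were rounded. Genes whose reads summed to at least 10 over the 2 libraries (13442; 3361 left out) were tested with the two-sided exact conditional binomial test against the library totals (scipy 1.17.1), with Benjamini-Hochberg adjustment. Log2 ratios had 0.5 read, scaled to the totals, added to each library, and intervals are exact Clopper-Pearson intervals at 95%. Reads lack molecular identifiers, so intervals cover counting error only. A count of 0 allows up to 3 reads, 0.290 CPM in control and 0.330 CPM after HTL. Without replicates, neither edgeR's quasi-likelihood test nor DESeq2's test was run. Alternatives were TMM (edgeR 4.0.16), median of ratios (DESeq2 1.42.0), upper quartile and non-member totals, 5 reads added, FPKM + 1, other filters, sums with pseudogenes or near copies, and an exact test of edgeR with assumed biological coefficients of variation. The binomial procedure was run on simulated counts with counting error alone and planted changes larger than those of the members tested. That simulation held no variation between cultures, so it does not check the calls against such variation.

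The members, gene lists and alternatives were chosen with earlier results of these data known, and the near copies and the counts of lists under other scalings after values had been seen. Named genes were the 5 members with the highest control FPKM, the 5 largest and 5 smallest ratios (mean of at least 100 reads), members past the cutoffs, paralog pairs, a few set by role, and the extremes of each list. Rpl13, Rpl18, Rpl37, Rps2, Rpsa, Rps14, other members given in ranges, and further list genes were named after their values were seen. Some items are not reported here. Gene positions are from GENCODE (NCBIM37, 80 members placed).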

Additional observations from a re-analysis of the deposited data

How the results depend on the processing

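No paired analysis was possible because there is only 1 library of either kind. The count of members past the study's cutoffs stayed at 1 under every scaling, filter and sum tried, and was 0 with an assumed coefficient of variation of 0.2 or 0.4. At the adjusted p alone, an assumed coefficient of variation of 0.1 left 4 members higher and 0 lower, and 0.2 and 0.4 left 0 and 0 (1 gene of all tested higher and 5 lower at 0.4). The median log2 ratio of the members, 0.47 with library totals, was 0.60 with TMM, 0.56 with the upper quartile, 0.60 with the median of ratios and 0.52 with the totals of other genes. TMM moved the median of all genes tested from -0.14 to -0.0076, and any scaling moves members and other genes by the same amount. The count of members lower at the adjusted p was 1 (Rpl7l1) under each of the 4, since Rpl21 turned to 0.046 (TMM), 0.0090 (upper quartile) and 0.043 (median of ratios), or no longer passed. The log2 ratio of the members' share of reads was 0.44 without the 10 most abundant other genes. Of 598 values of the 46 genes named by rule that were tested, 465 kept their direction and side of the threshold, 126 no longer passed, 4 passed newly (Rps27l, under each scaling) and 3 turned (Rpl21). These values pool all settings. With 5 reads added or FPKM + 1 the main adjusted p was kept, so the side of the threshold could not change. The assumed coefficients of variation, under which most members no longer passed, kept the main ratio, so no direction could turn. Depth limits Rpl3l, Rpl10l and Rpl32l, with at most 44 reads in a library.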

Other observations

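Copies of ribosomal protein genes listed as separate rows were mostly higher, like their parent genes, where they had many reads. A total of 25 rows shared the orthology entry of a member and were described as a pseudogene, a retrotransposed or predicted gene, or not at all. They belonged to 19 members and held 28123 reads in control and 32688 after HTL. Of the 21 tested, 10 were higher and 2 lower at an adjusted p of at most 0.001 (exact binomial test, Benjamini-Hochberg), beside 14.5% and 24.1% of all genes tested, and the other 8 with a ratio below 0 had at most 63 reads in control and did not pass. Rpl31-ps12 had 580 reads in control and 91 after HTL, a log2 ratio of -2.48 (-2.82 to -2.17), while its parent Rpl31 had 9412 and 10262 (0.31, 0.27 to 0.35). Rpl14-ps1 had 2530 and 4254 reads (0.93, 0.86 to 1.01), above Rpl14, and its share of the FPKM summed with Rpl14 was 25.03% in control and 37.4% after HTL. Gm5148, a copy of Rps23, had 1126 and 2075 reads (1.07, 0.96 to 1.17). Rpl37rt had more reads than Rpl37, 5981 and 7035, and made up 75.9 and 73.0% of their summed FPKM. Rps15a-ps6 had 135.6 and 216.5 FPKM, more than the 23.9 and 33.2 FPKM of Rps15a, whose listed transcript is 5158 bases long. Reads of such near-identical sequences cannot be assigned with certainty, and how the authors' counting divided them was not tested.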
